A study of Mus musculus with 6 samples.

Results

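The genes of mitochondrial oxidative phosphorylation were followed across 3 conditions in mouse liver. They were chosen by symbol alone: every gene whose annotated symbol begins with Nduf followed by a, b, c, s or v, with Uqcr, with Cox and a number from 4 to 8 and a letter, or with Atp5, together with the Sdh genes a to d. The rule found 90 of the 18193 genes measured. Of these, 73 encode subunits of the 5 liver complexes: 34 of complex I, 4 of complex II, 8 of complex III, 10 of complex IV and 17 of ATP synthase. The other 17 match by symbol but are not subunits of the liver complexes: 8 are isoforms known mainly from other tissues or from low oxygen, and 9 are assembly factors. Each gene was read from its brightest probe set that names a single gene.

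Oxidative phosphorylation couples the oxidation of NADH and succinate to ATP synthesis in the inner mitochondrial membrane. Complexes I and II pass electrons to ubiquinone, complex III passes them on to cytochrome c, complex IV reduces oxygen, and ATP synthase uses the proton gradient that complexes I, III and IV build. In the fasted liver this chain takes up the electrons released by fatty acid oxidation and supplies the ATP that gluconeogenesis consumes.

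Liver RNA from male C57BL/6J mice aged 8 weeks was measured on 6 Affymetrix arrays, 2 for each group: wild-type mice on normal chow, wild-type mice housed singly without food for 24 h, and Cnot3+/- mice likewise without food for 24 h. Cnot3 belongs to CCR4-NOT, the deadenylase complex that shortens mRNA poly(A) tails. How the Cnot3 allele was disrupted is not given in the sources used here. Cnot3+/- liver was measured only after fasting, and the replicates are labelled as biological.

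The values are log2 levels, the array medians lay between 5.59 and 5.64, and the median gene had a mean level of 6.74. A level near the array medians is not clearly above background. Cnot3 itself read 9.45 and 9.60 in fed wild-type, 9.27 and 9.32 in fasted wild-type and 9.40 and 9.16 in Cnot3+/- liver. The fasted groups differed by -0.01 (95% confidence interval -0.33 to 0.30), so the probe set did not separate the genotypes, and a probe set outside the removed part would check nothing. The labelled tissue was borne out: 7 of 7 measured hepatocyte markers were above the array medians, with a summed level between 17.33 and 17.46 (log2) on all arrays. The summed level of 8 macrophage and Kupffer cell markers was 12.06 to 12.41 in fed, 12.55 to 12.65 in fasted wild-type and 12.85 to 13.36 in Cnot3+/- liver. The summed level of 3 exocrine pancreas markers was 10.49 to 10.58 in fed liver and 9.32 to 9.52 in the fasted groups. Cela1 alone carried this (-1.45 on fasting): the median of the 3 was -0.13, and Prss2 differed by 0.31. Of 6 stellate cell and fibroblast markers 1 rose and 3 fell on fasting (median -0.73), among them Col3a1 (-2.32), while their summed level was 11.91 to 11.96 in fed and 12.04 to 12.07 in fasted wild-type liver and 12.00 to 12.32 in Cnot3+/- liver. Of 6 endothelial markers Lyve1 rose (1.58, limma adjusted p = 0.00456), and the summed level ran from 10.59 to 10.83 over all arrays. The summed level of 2 erythroid markers was 10.07 to 10.39 in fed, 9.20 to 9.65 in fasted wild-type and 9.67 to 9.91 in Cnot3+/- liver. The part of these cell type differences in the results was not tested. In whole tissue, fewer cells of a type and less RNA per cell cannot be told apart.

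In wild-type liver after a 24 h fast, the mRNA levels of the 73 subunits lay within narrow bounds of the fed level. Most were slightly below it. Subunits encoded in mitochondrial DNA do not match the symbol rule and were not followed. Among the 73 subunits, 61 had a lower and 12 a higher mean in fasted than in fed liver, with a median log2 difference of -0.09. Over all 18193 genes 45.3% were lower, with a median of 0.02. The 95% confidence interval of the difference stayed within 1.5-fold in either direction for 70 of the 73 subunits and within 2-fold for all 73. Over all genes 62.9% of intervals stayed within 1.5-fold. Of the 73 subunits, 70 had a mean level above 11, a height that 1460 genes reached. These 1460 bright genes had a median fasting difference of -0.01, with 50.4% lower, and 178 of them (12.2%) passed the test. Their median level was 12.04, against 12.80 for the 70 bright subunits.

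A gene is said to have passed, risen or fallen where limma's Benjamini-Hochberg adjusted p, taken over all genes within the comparison, was under 0.05. By this rule 5.02% of all genes changed on fasting, 1.87% upward and 3.15% downward. Of the 90 genes, 4 passed (4.44%), a share near that background: Cox6b2 rose, and Cox7c, Ndufaf5 and Ndufaf6 fell. Only Cox7c among them is a subunit of a liver complex, and its probe set reads low for an abundant mRNA. The groups did not overlap, with both fasted arrays under both fed arrays, for 42 of the 73 subunits (57.5%), against 23.7% of all genes and 36.03% of the 1460 bright genes. Both fasted arrays lay above both fed arrays for 5 subunits (6.85%), against 27.1% of all genes and 33.6% of the bright ones. The lower level of the subunits was therefore frequent but small, and for single subunits it seldom exceeded what 2 arrays a group can resolve. An unadjusted limma p under 0.05 was found for 4 of 73 subunits, against 3447 of all 18193 genes.

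**Figure D1:**
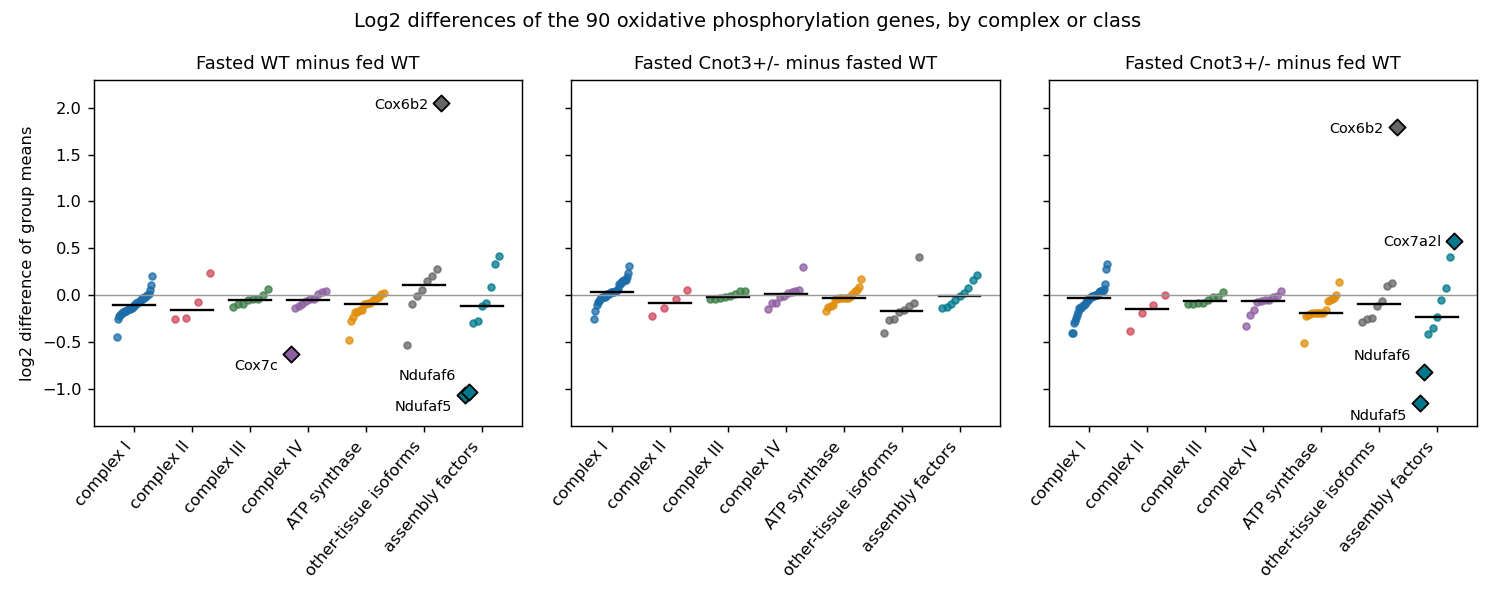
Log2 difference of group means (y axis) for each of the 90 genes, grouped by complex or class (x axis), in the 3 comparisons; bars are class medians, and named diamonds are genes with a limma adjusted p under 0.05. On fasting the medians of the 5 complexes lie between -0.16 and -0.05, and Cox6b2, Ndufaf5 and Ndufaf6 lie furthest from 0.

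The direction was shared by all 5 complexes. Lower subunits numbered 29 of 34 in complex I (median -0.10), 3 of 4 in complex II (-0.16), 7 of 8 in complex III (-0.05), 7 of 10 in complex IV (-0.05) and 15 of 17 in ATP synthase (-0.09). The mean log2 level over the 17 ATP synthase subunits was 13.23 and 13.28 in fed liver, 13.12 and 13.15 after fasting in wild-type and 13.10 and 13.12 in Cnot3+/- liver. Both fasted groups thus lay below both fed arrays without overlap. Complex IV gave 12.90 and 12.92 in fed, 12.81 and 12.81 in fasted wild-type and 12.83 and 12.81 in Cnot3+/- liver. Its mean difference of -0.10 on fasting lay further from 0 than its median of -0.05. That mean includes the dim probe set of Cox7c (-0.63). The mean over complex III ran from 13.06 to 13.14 over all 6 arrays, and that over complex I from 12.09 to 12.26. In each of the 5 complexes both fasted wild-type arrays lay below both fed arrays. The size of the shift depended on the fed arrays: without the second fed array 53 of 73 subunits were lower, with a median of -0.06, and without the first 62 were, with a median of -0.12.

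**Figure D2:**
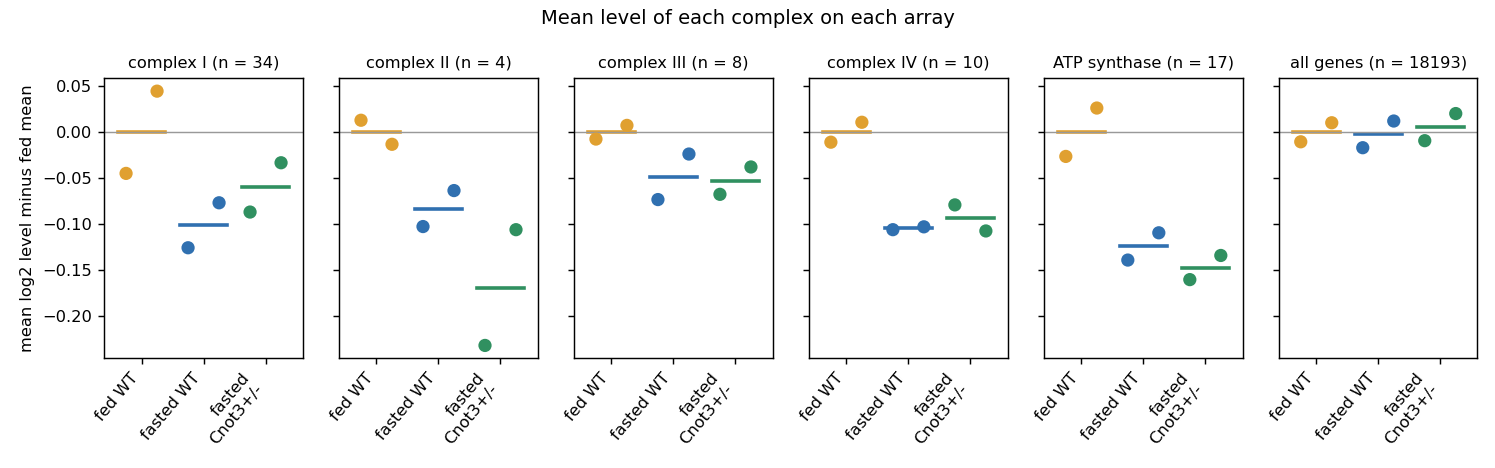
Mean log2 level of each complex on each array minus the mean of the fed arrays (y axis), by group (x axis); points are arrays, bars are group means, and the last panel shows all 18193 genes. In all 5 complexes both fasted wild-type arrays lie below both fed arrays, while the mean over all genes runs from 7.08 to 7.12.

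In complex I, the entry point for NADH, 0 of 34 subunits passed on fasting. The largest difference was that of Ndufs8, which holds iron-sulphur clusters in the arm that leads electrons to ubiquinone. Ndufs8 read 13.47 and 13.66 in fed liver, 13.06 and 13.17 in fasted wild-type liver and 13.13 and 13.20 in Cnot3+/- liver. The fed arrays stood above all 4 fasted arrays. The fasting difference was -0.45 (SE 0.13, limma adjusted p = 0.0989), which leaves 73.1% of the fed level. All 6 of its probe sets were lower in fasted wild-type liver, by 0.23 to 0.54, and the gene passed in 1 of 16 settings, where the variance prior was allowed to follow the level (adjusted p = 0.041). Over all settings its adjusted p reached 0.409, without the first fasted wild-type array. Ndufs7, which carries the cluster next to ubiquinone, differed the other way: 12.00 and 12.01 in fed, 12.12 and 12.30 in fasted wild-type and 12.17 and 12.51 in Cnot3+/- liver. Its difference of 0.21 (SE 0.15, adjusted p = 0.534) was the highest of complex I.

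The other core subunits of complex I stayed close to the fed level. Ndufs1, the largest iron-sulphur subunit, differed by -0.10 (SE 0.15), and Ndufv2, part of the NADH-oxidising module, by -0.07 (SE 0.12). Ndufv1, which binds NADH and the flavin, read 12.64 and 12.70 in fed and 12.70 and 12.57 in fasted wild-type liver, with overlapping groups and a difference of -0.03 (SE 0.13). Among the accessory subunits, Ndufc1 (-0.25, SE 0.12, adjusted p = 0.331) and Ndufb6 (-0.19, SE 0.12, adjusted p = 0.463) did not overlap between fed and fasted wild-type arrays, and neither passed. Ndufc1 read 12.51 and 12.56 in fed, 12.21 and 12.35 in fasted wild-type and 12.21 and 12.37 in Cnot3+/- liver, so both fasted groups lay at the same height. Ndufb3 behaved alike, with 11.61 and 11.75 in fed, 11.48 and 11.44 in fasted wild-type and 11.47 and 11.47 in Cnot3+/- liver (-0.22, adjusted p = 0.38). Ndufa9 and Ndufa10 were picked after their values were seen and passed in no comparison. Ndufa9, which stabilises the joint of the 2 arms, read 12.28 and 12.26, then 12.15 and 12.08, then 12.32 and 12.23. Ndufa10, a membrane-arm subunit, read 12.95 and 13.03, then 12.73 and 12.88, then 12.94 and 12.99. At the other end Ndufc2 (0.01), Ndufa7 (0.00) and Ndufa1 (0.06) did not lie below the fed mean. Ndufb4 was read at a mean level of 4.82, under the array medians, and Ndufb1 at 7.28, so their values carry little weight.

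Complex II is succinate dehydrogenase, the citric acid cycle enzyme that feeds ubiquinone directly, and its 4 subunits did not move alike. The iron-sulphur subunit Sdhb read 13.54 and 13.57 in fed, 13.30 and 13.31 in fasted wild-type and 13.31 and 13.42 in Cnot3+/- liver. The membrane anchor Sdhc read 12.48 and 12.60, then 12.26 and 12.32, then 12.11 and 12.20 in the same order. For both genes the fed arrays lay above all fasted arrays, with fasting differences of -0.25 for Sdhb (SE 0.11, adjusted p = 0.295) and -0.25 for Sdhc (SE 0.12, adjusted p = 0.326) in limma's test. The other anchor, Sdhd, read 12.23 and 12.02 in fed and 12.30 and 12.41 in fasted wild-type liver, a difference of 0.23 (SE 0.13, adjusted p = 0.412). The catalytic flavoprotein Sdha differed by -0.07 (SE 0.12). None of the 4 passed.

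In complex III, 0 of 8 subunits passed or had an unadjusted p under 0.05 on fasting. Its median of -0.05 depended on the probe sets read: it was -0.101 with means over probe sets and -0.136 without probe sets shared between transcripts. The catalytic Rieske protein Uqcrfs1 read 13.26 and 13.21 in fed, 13.27 and 13.32 in fasted wild-type and 13.20 and 13.33 in Cnot3+/- liver, a fasting difference of 0.06 (SE 0.12). The core proteins Uqcrc1 and Uqcrc2 differed by -0.09 and -0.05 (SE 0.12 for each). The lowest value was that of the small subunit Uqcr11, at -0.13 (SE 0.13, adjusted p = 0.676).

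In complex IV, cytochrome c oxidase, 1 of 10 nuclear-encoded subunits fell on fasting. Cox7c, a small subunit of the membrane part, read 7.04 and 6.91 in fed, 6.30 and 6.39 in fasted wild-type and 6.65 and 6.63 in Cnot3+/- liver. The 3 groups were separate, with fasted wild-type lowest. The fasting difference was -0.63 (SE 0.12, limma adjusted p = 0.0313), which leaves 64.7% of the fed level. The probe set reads at the height of the median gene (mean 6.65 against 6.74), unlike those of the other complex IV subunits. Cox7c mRNA is known to be abundant in liver, so this probe set may not read its main transcript, which was not tested. The second Cox7c probe set lay under the array medians (4.77 and 4.78 in fed, 4.14 and 4.38 in fasted wild-type liver). The call was lost without either fed array (adjusted p = 0.13 without the first and 0.092 without the second) and without either fasted wild-type array (0.20 and 0.13). It was also lost without probe sets shared between transcripts (0.19) and with the mean over both probe sets (0.059).

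The remaining complex IV subunits lay within 0.14 of the fed level. Cox4i1 and Cox5b, of the regulatory and peripheral subunits, differed by 0.04 (SE 0.11) and -0.04 (SE 0.12). Cox5a had the lowest value, -0.14 (SE 0.16, adjusted p = 0.717). Cox6a1 read 14.41 and 14.42 in fed and 14.36 and 14.39 in fasted wild-type liver. The groups did not overlap at a difference of -0.04. Its second probe set was apart the other way (0.08), with 13.12 and 13.21 in fed and 13.26 and 13.23 in fasted wild-type liver.

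In ATP synthase the largest value was in the proton-carrying ring. Subunit c of the ring is encoded by 3 genes with different targeting peptides, Atp5g1, Atp5g2 and Atp5g3. Atp5g1 read 13.29 and 13.42 in fed, 12.78 and 12.97 in fasted wild-type and 12.70 and 12.97 in Cnot3+/- liver. The fed arrays stood above all 4 fasted arrays, with a fasting difference of -0.48 (SE 0.14, adjusted p = 0.123 in limma's test). Atp5g2 (-0.05, SE 0.17) and Atp5g3 (0.01, SE 0.11) overlapped between fed and fasted wild-type arrays, and whether they differ from Atp5g1 was not tested. The catalytic head subunits Atp5a1, Atp5b and Atp5c1 differed by -0.04 (SE 0.12), 0.03 (SE 0.11) and -0.09 (SE 0.13). Atp5k, a small membrane subunit, differed by -0.27 (SE 0.11, adjusted p = 0.253). Among the parts of the peripheral stalk, which holds the head in place, Atp5pb read 13.62 and 13.56 in fed, 13.45 and 13.41 in fasted wild-type and 13.54 and 13.25 in Cnot3+/- liver (-0.16), and Atp5j 13.24 and 13.34, then 13.15 and 13.11, then 13.11 and 13.08 (-0.16). Both were lower on all 4 fasted arrays. Atp5o, which links the stalk to the head, overlapped (-0.02). None of the 17 passed.

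**Figure D3:**
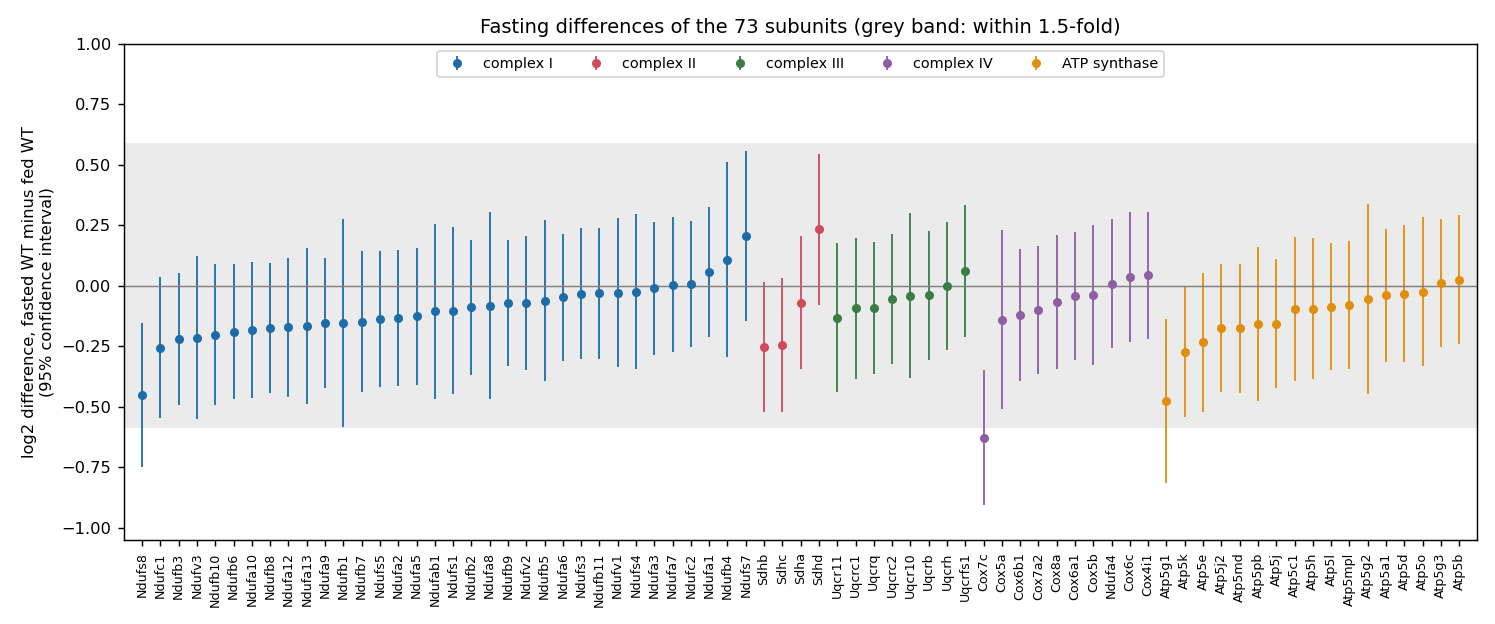
Fasted minus fed wild-type log2 difference (y axis) for each of the 73 subunits (x axis, ordered within each complex), with 95% confidence intervals from limma; the grey band marks 1.5-fold in either direction. Intervals reach outside the band for 3 subunits, Ndufs8, Cox7c and Atp5g1, and 61 of the 73 points lie below 0.

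Among the 8 isoforms of other tissues, 1 rose. Cox6b2, known as the testis form of a complex IV subunit that liver makes mainly from Cox6b1, read 5.73 and 5.96 in fed, 7.61 and 8.18 in fasted wild-type and 7.39 and 7.89 in Cnot3+/- liver. The fed arrays read just above the array medians, and all 4 fasted arrays lay far above them. The fasting difference was 2.05 (SE 0.24, limma adjusted p = 0.00589). As the fed level is not clearly above background, the estimate of 4.14-fold may understate the rise. The log2 difference ran from 1.77 to 2.33 over the settings tried. The gene passed in all 16 settings tried, leaving out each array included (adjusted p at most 0.040). Cox6b1 read 13.81 and 13.93 in fed and 13.73 and 13.77 in fasted wild-type liver (difference -0.12, SE 0.12). Its second probe set differed by 0.095. The muscle forms gave no such rise: Cox6a2 differed by 0.15 (SE 0.11), and Cox7a1, Cox8b and Cox4i2, a lung form, read near or under the array medians. The testis forms Cox8c (-0.01) and Cox7b2 (0.06) and the hypoxia-induced Ndufa4l2 (-0.10) overlapped between fed and fasted wild-type arrays. Of 8 muscle markers 1 was above the array medians, and of 3 brown fat markers 0 were. Over the 6 arrays the gene most like Cox6b2 was Cdk17 (Pearson r = 0.999), followed by Rpap3 and Hsd17b4. This describes 6 arrays in 3 groups and says nothing of shared function.

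The largest falls were in 2 assembly factors of complex I. Ndufaf5, which modifies the Ndufs7 protein during assembly, read 7.88 and 7.95 in fed, 6.86 and 6.84 in fasted wild-type and 6.69 and 6.83 in Cnot3+/- liver. The fed arrays were clearly apart from the others. Its fasting difference was -1.06 (SE 0.12, limma adjusted p = 0.00525), which leaves 47.9% of the fed level. Ndufaf6, needed early in assembly, read 10.25 and 10.16 in fed, 8.998 and 9.35 in fasted wild-type and 9.37 and 9.39 in Cnot3+/- liver. It fell by 1.04 on the log2 scale (SE 0.15, adjusted p = 0.0116), to 48.8% of the fed level. Without the first fasted wild-type array neither passed (adjusted p = 0.056 for Ndufaf5 and 0.088 for Ndufaf6). Without the second fasted wild-type array Ndufaf5 missed the threshold (0.0503) and Ndufaf6 passed (adjusted p = 0.035), and without either fed array Ndufaf6 missed it (0.058 and 0.057). Ndufaf5 has a single probe set, shared between transcripts. The other assembly factors with Nduf symbols differed by between -0.30 (Ndufaf2) and 0.33 (Ndufaf3), and none passed.

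Cox7a2l, a factor linked to supercomplexes of complexes III and IV, was higher in the fasted groups. It read 11.30 and 11.23 in fed, 11.76 and 11.62 in fasted wild-type and 11.88 and 11.82 in Cnot3+/- liver. On this probe set the groups were separate and ordered fed, fasted wild-type, Cnot3+/-. On another of its 3 probe sets the fasted groups overlapped (11.35 and 11.43 in wild-type, 11.38 and 11.31 in Cnot3+/- liver). The fasting difference in wild-type was 0.42 (SE 0.12, limma adjusted p = 0.10) and passed as the mean over its 3 probe sets (0.50, adjusted p = 0.035), each of which was higher in all 4 fasted arrays than in both fed arrays.

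**Figure D4:**
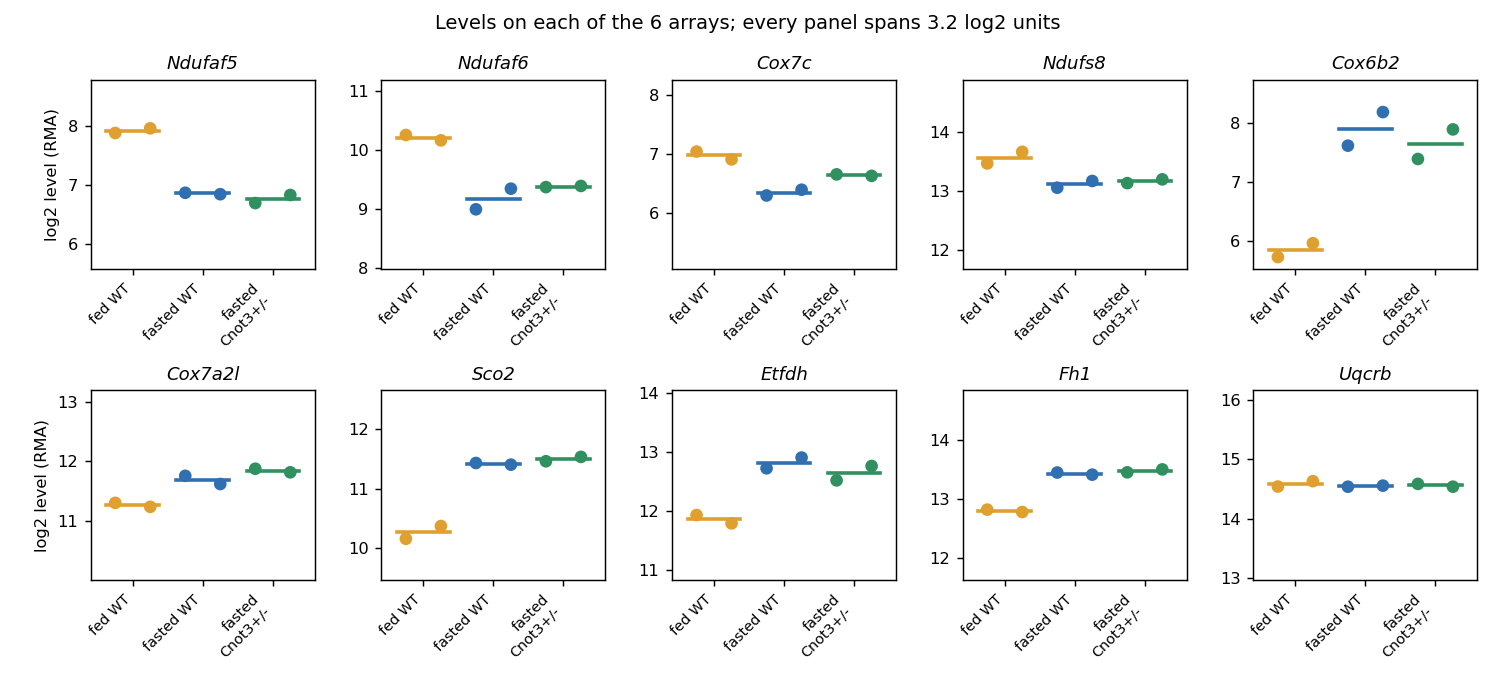
RMA log2 level (y axis) on each array by group (x axis) for 10 genes; points are arrays, bars are group means, and each panel spans the same number of log2 units. Ndufaf5 and Ndufaf6 are lower and Cox6b2 higher on all 4 fasted arrays, while Uqcrb, shown for scale, runs from 14.54 to 14.63.

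The genotype comparison asks whether losing a Cnot3 allele changed these genes in the fasted liver. No gene on the arrays passed (0.0% of 18193, with 1011 at an unadjusted limma p under 0.05), and so 0 of the 90 did, with 3 at an unadjusted p under 0.05. Among the 73 subunits 36 were higher and 37 lower in Cnot3+/- than in wild-type liver, with a median of -0.00. When each array was centred on its brighter genes the split became 59 lower and 14 higher (median -0.07, against -0.07 over all genes), so no direction can be read from it. The 95% confidence interval stayed within 1.5-fold for 71 of the 73 subunits.

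By complex, the genotype medians were 0.03 for complex I, -0.09 for complex II, -0.02 for complex III, 0.01 for complex IV and -0.03 for ATP synthase. In complex I both Cnot3+/- arrays lay above both fasted wild-type arrays for 11 of 34 subunits (32.4%) and below them for 0. Over all genes 17.5% were separate upward and 18.5% downward. Ndufv1 had the largest of these differences: 12.70 and 12.57 in fasted wild-type against 13.06 and 12.83 in Cnot3+/- liver. The difference was 0.31 (SE 0.13, limma adjusted p = 0.863, unadjusted p = 0.0483). Ndufa5, an accessory subunit, differed by 0.24 (SE 0.12, adjusted p = 0.864). Cox7c differed by 0.30 (SE 0.12, adjusted p = 0.863), and Cox6a2 by -0.40 (SE 0.11, adjusted p = 0.863), with 7.50 and 7.57 in wild-type against 7.13 and 7.13 in Cnot3+/- liver. The genes with the largest fasting differences did not pass here: Cox6b2 overlapped between the genotypes (-0.26, SE 0.24), Ndufaf5 differed by -0.09 (SE 0.12) and Ndufaf6 by 0.21 (SE 0.15).

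Fasted Cnot3+/- liver was also set against fed wild-type liver. This comparison shares its arrays with both others, so its values stand beside theirs and are not independent of them. Over all genes 7.56% changed, 3.88% up and 3.68% down. Of the 90 genes 4 passed (4.44%). Cox6b2 (1.79, SE 0.24, limma adjusted p = 0.00706) and Cox7a2l (0.58, SE 0.12, adjusted p = 0.0294) rose. Ndufaf5 (-1.16, SE 0.12, adjusted p = 0.00297) and Ndufaf6 (-0.83, SE 0.15, adjusted p = 0.0187) fell. The Cox6b2 value again rests on a fed level not clearly above background. Without either fed array, or without either Cnot3+/- array, Cox6b2 and Ndufaf5 remained of the 4. Without either fasted wild-type array Cox7a2l missed the threshold (adjusted p = 0.060). Of the 73 subunits 58 were lower and 15 higher, with a median of -0.07. After cyclic loess between arrays the split was 50 and 23. Both Cnot3+/- arrays lay below both fed arrays for 29 subunits (39.7%), against 23.4% of all genes and 32.1% of the bright ones. They lay above them for 5 (6.85%), against 24.6% and 32.6%. The medians were -0.19 for ATP synthase, -0.15 for complex II, -0.07 for complex III, -0.06 for complex IV and -0.03 for complex I. Atp5g1 had the lowest value, -0.51 (SE 0.14, adjusted p = 0.0825), and Ndufs8 read -0.40 (SE 0.13, adjusted p = 0.117).

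Genes that work around the chain were taken from 6 lists. Their counts stand beside 5.02% of all genes that passed on fasting and 45.3% that were lower. Of 42 measured assembly factors, 1 rose and 2 fell on fasting, and the median was -0.10. The 2 that fell were again Ndufaf5 and Ndufaf6, as this list also holds Ndufaf1 to Ndufaf7 of the 90 genes. The riser was Sco2, a copper chaperone of complex IV, which read 10.15 and 10.37 in fed, 11.43 and 11.40 in fasted wild-type and 11.46 and 11.54 in Cnot3+/- liver. Its difference was 1.16 (SE 0.13, limma adjusted p = 0.00467). Its span in RefSeq overlaps Ncaph2 and Tymp, and their part in this signal was not tested. Among 14 electron carriers and ubiquinone synthesis genes 1 rose: Etfdh, which passes electrons from fatty acid oxidation to ubiquinone. Etfdh read 11.94 and 11.79 in fed, 12.72 and 12.91 in fasted wild-type and 12.52 and 12.76 in Cnot3+/- liver, a difference of 0.95 (SE 0.14, adjusted p = 0.0136); its span overlaps Ppid. All 4 fasted arrays lay above both fed arrays. Cytochrome c (Cycs) and cytochrome c1 (Cyc1), the mobile carrier and a catalytic subunit of complex III outside the symbol rule, differed by -0.06 and -0.22 (SE 0.12 for each).

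In the citric acid cycle 1 of 13 genes rose on fasting. Fumarase (Fh1) read 12.82 and 12.78 in fed, 13.45 and 13.41 in fasted wild-type and 13.45 and 13.50 in Cnot3+/- liver (0.63, SE 0.11, limma adjusted p = 0.0252). Citrate synthase (Cs) did not pass, at -0.53 (SE 0.13, adjusted p = 0.0654). Of 76 mitochondrial ribosomal proteins 2 fell, Mrps25 (-0.74, adjusted p = 0.0374) and Mrpl23 (-0.58, adjusted p = 0.0466), and 49 of 76 were lower, with a median of -0.10. Of 10 genes for ATP exchange, uncoupling and ATP synthase inhibition 0 passed, with 0 at an unadjusted p under 0.05. Of 18 regulators of mitochondrial biogenesis 0 passed on fasting, with 5 at an unadjusted limma p under 0.05, and 14 of 18 were higher (median 0.20). Of all 18193 genes 3447 had such a p and 9954 were higher. The coactivator Ppargc1a varied widely within groups: 8.27 and 6.70 in fed, 7.64 and 8.81 in fasted wild-type and 9.28 and 9.32 in Cnot3+/- liver. Its differences of 0.74 on fasting (SE 0.53, adjusted p = 0.528) and 1.07 between genotypes (SE 0.53, adjusted p = 0.863) did not pass.

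In Cnot3+/- against fed wild-type liver, where 7.56% of all genes passed against 5.02% on fasting, 3 of the 6 lists held more calls than on fasting: the assembly factors 5 of 42, the citric acid cycle 3 of 13 and the regulators 3 of 18. Electron carriers stayed at 1 and ATP exchange at 0, and mitochondrial ribosomal proteins had 1. The regulators Tfb1m (0.65), Tfb2m (0.62) and Polg (0.56), which serve mitochondrial transcription and DNA replication, rose (limma adjusted p of 0.0307, 0.0295 and 0.0286). Sco2 (1.24), Uqcc3 (0.56) and Coa6 (0.57) rose among the assembly factors, beside the falls of Ndufaf5 and Ndufaf6. Fh1 (0.68), Dlst (0.58) and Ogdh (0.62) rose in the citric acid cycle, Etfdh rose by 0.78, and Mrps28 fell by 0.72. None of these genes passed between the fasted genotypes, where 0 of all genes did. The RefSeq spans of Ndufaf5, Cox7c, Coa6, Ogdh, Dlst, Tfb1m, Polg, Mrps25 and Mrps28 also overlap other genes. The part of those genes in the signals was not tested.

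Many genes of the respiratory chain are known targets of the transcription factors NRF1, GABP, YY1 and the oestrogen-related receptors. Promoter windows reaching from 250 bases before to 50 after the annotated start were taken from RefSeq (GRCm38.p6), and 62 of the 73 subunits had one. The motif letters searched on both strands were GCGCATGC for NRF1, CCGGAAGT for GABP, AAGATGGC for YY1 and TCAAGGTCA for the oestrogen-related receptors. NRF1 letters were found in 9 subunit windows (14.5%), against 4.70% of the 14368 windows of genes on the arrays. YY1 letters were found in 9 (14.5%, against 4.09%), GABP letters in 5 (8.07%, against 6.65%) and receptor letters in 2 (3.23%, against 0.404%). At least 1 motif was present in 24 subunit windows (38.7%, against 14.7%). The part of these letters in the fasting differences was not tested. On fasting, 9 of 9 subunits with the NRF1 letters and 43 of 53 without them were lower, both with a median of -0.09. With the YY1 letters 8 of 9 were lower (median -0.16) and without them 44 of 53 (-0.09), with the GABP letters 5 of 5 (-0.07), and with the receptor letters 0 of 2 (0.12). A match is a description of the letters and not a site.

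Windows of 3 genes are shown, for the assembly factor that fell most, the complex III subunit with the lowest value and the isoform that rose. Each runs 5′ to 3′ along the gene's strand, with motif letters in capitals. Ndufaf5 (chr2:140170396-140170695, plus strand) holds the NRF1 letters on both strands, overlapping each other after the annotated start. Uqcr11 (chr10:80406772-80407071, minus strand) holds GABP letters and then NRF1 letters. Cox6b2 (chr7:4753045-4753344, minus strand) holds none of the 4.
Ndufaf5: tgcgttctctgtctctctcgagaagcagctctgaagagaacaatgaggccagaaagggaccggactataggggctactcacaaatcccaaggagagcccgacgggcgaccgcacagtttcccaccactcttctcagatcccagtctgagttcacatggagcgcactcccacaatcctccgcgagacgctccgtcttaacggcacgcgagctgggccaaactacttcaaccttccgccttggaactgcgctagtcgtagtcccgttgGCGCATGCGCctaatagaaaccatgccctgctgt
Uqcr11: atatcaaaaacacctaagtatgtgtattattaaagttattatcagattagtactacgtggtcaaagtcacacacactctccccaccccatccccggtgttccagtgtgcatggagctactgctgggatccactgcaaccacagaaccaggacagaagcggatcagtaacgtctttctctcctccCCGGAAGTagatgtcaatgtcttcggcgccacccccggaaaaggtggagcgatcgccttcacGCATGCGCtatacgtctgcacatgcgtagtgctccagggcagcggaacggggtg
Cox6b2: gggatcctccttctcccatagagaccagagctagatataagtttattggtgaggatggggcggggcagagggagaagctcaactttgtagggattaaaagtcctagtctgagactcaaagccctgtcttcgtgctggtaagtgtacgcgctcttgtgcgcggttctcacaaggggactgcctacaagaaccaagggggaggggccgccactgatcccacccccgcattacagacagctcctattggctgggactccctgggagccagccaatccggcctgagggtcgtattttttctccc
Ndufaf5 and Uqcr11 thus share NRF1 letters near the start, and their fasting differences were -1.06 and -0.13. NRF1 letters were found in 2 of 8 assembly factor windows. The other was that of Ndufaf4, which differed by 0.08 on its brightest probe set. The part of the letters in these differences was not tested.

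The 90 genes were represented by 179 probe sets, 39 genes by 1 and 51 by several. In 44 genes several probe sets lay above the median gene level. Those probe sets had the same sign on fasting in 31 genes and opposite signs in 13, and dimmer ones were not counted. The median gap between those probe sets of a gene was 0.12, while the median subunit difference was -0.09. Among the 44 genes Ndufs4, a complex I subunit of the electron-transfer arm, had the widest gap, 0.50. Its brightest probe set read 11.21 and 11.28 in fed and 11.14 and 11.30 in fasted wild-type liver (-0.02). A dimmer one read 8.20 and 8.26 in fed and 7.66 and 7.74 in fasted wild-type liver (-0.53). The size of a single subunit's difference therefore depended on which probe set was read.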

How the data were processed

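The authors deposited log2 levels of 45101 probe sets on 6 arrays; the submitters' processing notes name RMA as the tool, without a version. They were used as deposited, without further normalisation. Control probe sets (64) were left out. Gene symbols came from the platform annotation, in which 34945 probe sets name 1 gene; each of 18193 genes was represented by its brightest such probe set over the 6 arrays. A single linear model with 3 group means was fitted to all genes in limma 3.58.1 (R 4.3.3; 3 residual and 4.24 prior degrees of freedom), with Benjamini-Hochberg adjustment within each comparison, and called at an adjusted p under 0.05. The test was tried on simulated data first.

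SE is the moderated standard error of a log2 difference. Only 2 arrays a group limit the precision of every value. Genes named were drawn from those called, the 2 of each complex with the smallest p in each comparison, core subunits and tissue isoforms. From the related lists they are those called in any comparison. No gene is named from the list of ATP exchange, uncoupling and inhibition, where none was called. Ndufa1, Ndufa7, Ndufa9, Ndufa10, Ndufb1, Ndufb3, Ndufb4, Ndufc2, Ndufs4, Ndufaf2, Ndufaf3 and Ndufaf4 were added or dwelt on after their values were seen. So were Cox7b2, Cs, Atp5j, Atp5o, Atp5pb, Cycs, Cyc1, Uqcrb and Ppargc1a. Complexes were assigned by hand from textbook knowledge. The genes and lists were chosen with earlier results of these data known. Replicate numbers of the labels are not stated to pair animals, and were not used. Alternatives covered the probe set, normalisation, centring, a filter on dim genes, the variance prior, the arrays fitted, the replicate block and leaving out each array. Promoters, their build and gene spans are from RefSeq, and sequences were read with Python 3.11.15. No protein sequences were used here. Figures were drawn with matplotlib 3.10.9.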

Additional observations from a re-analysis of the deposited data

How the results depend on the processing

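Across the alternatives, the count of the 90 genes called on fasting stayed at 3 to 5 except without probe sets shared between transcripts, where it was 2 of 72, and when an array was left out, where it ran from 1 to 4. For Cnot3+/- against fed wild-type liver it ran from 2 to 3 when an array was left out and from 3 to 6 otherwise. Between the fasted genotypes it was 0 in every setting. Cox6b2 kept its call in all of them in both comparisons with fed liver.

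Complex medians moved by more than their spread between replicate arrays as follows. On fasting, complex II was -0.070 without shared probe sets, and complex III was -0.101 with means over probe sets, -0.136 without shared probe sets and -0.016 when centred on brighter genes (-0.076 to -0.030 with an array left out). Between genotypes, centring gave -0.155, -0.084, -0.060 and -0.096 for complexes II, III, IV and ATP synthase. Means over probe sets gave -0.0088 for complex II and 0.0061 for complex III, and complex III was 0.0091 without shared probe sets. Leaving out an array gave -0.144 to -0.030 for complex II and -0.044 to 0.0098 for complex III. For Cnot3+/- against fed, complex III was -0.029 with means over probe sets, 0.021 without shared ones, -0.053 after cyclic loess and -0.103 when centred, and ATP synthase was -0.047 with means. Leaving out an array gave -0.213 to -0.089 for complex II, -0.070 to -0.019 for complex III and -0.190 to -0.122 for ATP synthase. Within that spread, leaving out an array still moved complex I from -0.139 (without the first fed array) to -0.048 (without the second) on fasting, and from -0.097 to -0.0076 for Cnot3+/- against fed without the same arrays. Between genotypes complex I reached 0.081 without the second fasted wild-type array. Complex IV on fasting ran from -0.095 (without the first fed array) to -0.036 (without the first fasted wild-type array). The causes were not tested. The Atp5c1 difference for Cnot3+/- against fed wild-type liver turned from -0.22 to 0.71 (limma adjusted p = 0.034) without shared probe sets. That setting leaves a probe set near the array medians.

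The replicate numbers were not taken as pairs. Across genes, deviations of same-numbered arrays correlated at 0.04 (fed and fasted wild-type) and -0.01 (fed and Cnot3+/-), but at 0.45 between the fasted groups, where same-numbered arrays varied together. With the replicate block the counts were 4, 0 and 5, the fifth being Atp5g1 against fed liver (-0.51, limma adjusted p = 0.041). Over all genes the counts were 1206, 0 and 1708, against 913, 0 and 1375. Of 2031 values of 46 named genes over 15 alternatives, 111 that passed in neither setting changed sign. With 2 arrays a group, differences of the size seen for most subunits are below what a single gene's test can resolve.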

Other observations

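Some oxidative phosphorylation transcripts were read by probe sets that name several genes and so lay outside the symbol rule. The brighter probe set for Ndufa11 and Ndufa11b, a complex I membrane-arm subunit, differed by -0.33 on fasting. It read 11.70 and 11.86 in fed, 11.31 and 11.60 in fasted wild-type and 11.46 and 11.54 in Cnot3+/- liver. The brighter probe set for Ndufb4 and its copies Ndufb4b and Ndufb4c read 12.79 and 12.90 in fed, 12.46 and 12.59 in fasted wild-type and 12.43 and 12.60 in Cnot3+/- liver (-0.32), whereas the probe set that names Ndufb4 alone read under 5.1 throughout. Those for Ndufab1 and Ndufs5 with their pseudogenes differed by -0.30 and -0.20, and that for Ndufs6 and Ndufs6b by -0.13. In these 5 the fasted wild-type arrays lay below the fed arrays. The second probe set for Ndufb4 and its copies differed by -0.23. Dimmer probe sets did not share the direction. That for Ndufb2 and Adck2 read 6.27 and 6.01 in fed and 6.31 and 6.32 in fasted wild-type liver (0.17). Those for Ndufa13 and Yjefn3 differed by 0.12 and 0.08, and the dimmer one for Ndufa11 by -0.01. These values were not tested, and each cannot be assigned to 1 gene.

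Over the 6 arrays, the genes with the pattern most like Ndufaf5 were Rcc2 (Pearson r = 0.997) and Inpp1, those most like Ndufaf6 were Ly75 (r = 0.993) and Fkbp8, those most like Cox7a2l were Cnppd1 (r = 0.999) and Cluh, and those most like Cox7c were Gramd1c (r = 0.994) and Nbdy. These values describe 6 arrays in 3 groups.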
